A study of Mus musculus with 10 samples.

Results

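The replication-dependent core histone genes are the multicopy genes that encode histones H2A, H2B, H3 and H4 for newly made DNA. They were taken here as the protein-coding genes whose symbols begin with Hist1h2, Hist1h3, Hist1h4, Hist2h, Hist3h or Hist4h in the GENCODE M21 annotation of mouse build GRCm38, without the linker histone H1 genes and without 3 pseudogenes. Of 61 such genes, 48 had a row in the count table, which held 35375 rows in all. The other 13, among them Hist4h4, had no row under their identifier and were not analysed here. The 48 members were 16 H2A, 13 H2B, 7 H3 and 12 H4 genes, and 37 lie in the Hist1 cluster on chromosome 13, 9 in the Hist2 cluster on chromosome 3 and 2 in the Hist3 cluster on chromosome 11. After a filter on low counts 43 members were tested. The 5 that were not were Hist1h2aa, which stayed at or under 0.0654 CPM (counts per 1 M counts of the TMM-scaled library) in every library, and Hist2h2aa1, Hist2h2aa2, Hist2h3b and Hist2h3c1, which were at 0 in every library. Of the 100-base stretches of these last 4, in this order, 11.7%, 0.0%, 22.9% and 0.0% occur in no other annotated gene. Whether their transcripts were absent or their reads went uncounted was not tested.

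Cells make these histones in S phase, when each replicated genome has to be packed into nucleosomes, whose core holds a pair of each of the 4 core histones. The transcripts are the known exception among messenger RNAs in lacking a poly(A) tail: they end just after a short stem-loop that is bound by the protein Slbp, and they are degraded when DNA synthesis stops. The genes have no introns and sit in clusters, often as an H2A and an H2B gene that start head to head from 1 shared stretch of DNA. Because the thymus of a newborn mouse is full of dividing T-cell precursors, its histone transcripts are abundant, and a library from rRNA-depleted total RNA can hold them although they lack a tail.

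The samples were whole thymi of 10 C57BL/6J mice, taken 3 days after birth. Usp7, the gene of a deubiquitinating enzyme, was deleted in the hematopoietic system on both alleles (homozygous KO, n = 3; animals 50, 57 and 62) or on 1 allele (heterozygous KO, n = 3; animals 48, 61 and 63), and 4 mice were wild type (animals 44, 47, 51 and 56). The series describes 2 of the wild types as carrying cre induction and 2 as without it, does not say which are which, and the driver of cre is not given in the sources used here. The titles of animals 44 and 47 hold 2 wt words. Those of animals 51 and 56 hold 1, and their column names carry an extra het. Whether this is the division by cre is not stated. Cells of the thymus outside the hematopoietic system, such as its epithelium, would keep both alleles. Per the labels each library came from 1 animal. The animal numbers fall into 2 runs, 44 to 51 (1 homozygous KO, 1 heterozygous KO and 3 wild types) and 56 to 63 (2 homozygous KO, 2 heterozygous KO and 1 wild type), and what a run of numbers stands for is not stated in the labels. Library totals were 39.8 to 122 M counts, and the 4 wild-type libraries, at 39.8 to 86.4 M, were the shallowest.

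The stem-loop that replaces the poly(A) tail is shown first, since it is what sets these transcripts apart in a total RNA library. It was searched for in the annotated transcripts as a stem of 6 base pairs around a loop of 4 bases, 16 bases in all, and was present in 34 of the 48 members. Of the 14 without a match, 8 had annotated transcripts under 410 bases that stop close to the end of the coding sequence. The most common form was shared by 18 H2A, H2B and H3 genes. The others shown were held by 4 H2B and H3 genes, by 6 H4 genes, and by the H4 genes Hist1h4b and Hist1h4j. Capitals mark the whole stem-loop, 5′ to 3′.
Hist1h2ab and 17 others: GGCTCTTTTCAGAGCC
Hist1h2bb, Hist1h2bk, Hist1h3c and Hist1h3e: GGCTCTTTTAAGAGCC
Hist1h4c and 5 other H4 genes: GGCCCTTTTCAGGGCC
Hist1h4b and Hist1h4j: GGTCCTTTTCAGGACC

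Promoters of 44 members (45 sequences) could be matched in the RefSeq tables of GRCm38.p6, as 250 bases before to 50 bases after the start. With both strands searched, the TATA box letters TATAAA were in 60.0% of them and in 13.6% of all 32851 promoters. The CCAAT box letters CCAAT were in 82.2% against 37.4%, and the octamer ATTTGCAT, known as the element of H2B promoters, in 26.7% against 1.74%. By class, CCAAT was in every H2A, H2B and H3 promoter and in 27.3% of the H4 promoters, and the octamer was in 43.8% of the H2A, 41.7% of the H2B and none of the H3 and H4 promoters. Promoters of head-to-head H2A and H2B genes overlap, and with both strands searched a site in the overlap counted for both genes. This was so for the octamers of Hist1h2aa and Hist1h2ba, Hist1h2ae and Hist1h2bg, and Hist1h2ah and Hist1h2bk. The H2A and H2B shares are thus not separate. A match gives letters, not a bound site. The promoter of Hist2h2ac is printed because its gene and Hist2h2be start 239 bases apart in opposite directions and differed in their response, and that of the H4 gene Hist1h4j because it was among the members that rose most. Capitals mark the letters of the 3 motifs on either strand. Hist2h2ac lies on the minus strand at chr3:96220831-96221130 and Hist1h4j on the plus strand at chr13:21734784-21735083.
Hist2h2ac: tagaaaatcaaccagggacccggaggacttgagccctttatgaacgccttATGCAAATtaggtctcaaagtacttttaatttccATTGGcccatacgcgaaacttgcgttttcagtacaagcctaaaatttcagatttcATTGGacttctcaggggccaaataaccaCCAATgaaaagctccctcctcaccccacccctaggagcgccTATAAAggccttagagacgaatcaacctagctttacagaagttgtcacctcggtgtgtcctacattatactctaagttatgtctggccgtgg
Hist1h4j: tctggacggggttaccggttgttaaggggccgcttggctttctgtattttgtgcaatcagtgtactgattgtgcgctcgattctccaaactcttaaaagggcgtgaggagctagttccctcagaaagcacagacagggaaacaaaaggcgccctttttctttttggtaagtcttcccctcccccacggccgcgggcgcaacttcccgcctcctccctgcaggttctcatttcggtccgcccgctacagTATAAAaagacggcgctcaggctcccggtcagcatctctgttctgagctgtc

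Usp7 was examined first as a check of the labels. Its level ran from 303 to 422 CPM with both alleles deleted, from 472 to 516 CPM with 1 allele deleted and from 589 to 676 CPM without deletion. The ranges did not overlap, and edgeR's quasi-likelihood test gave a log2 difference of −0.74 ± 0.11 (SE) between the first and the last, with an adjusted p of 5.2e-04. Between heterozygous KO and wild type the same test did not call Usp7: the only 3 genes called of 19511 were higher in heterozygous KO. With 1 library left out the log2 difference of Usp7 there was −0.37 to −0.29. Of all tested genes 4.26% had every heterozygous KO library below the wild types. In whole thymus, fewer cells of a type and less RNA per cell cannot be told apart for any of the values here.

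The core histone genes together took 1.89% to 2.65% of all counts in the homozygous KO libraries, 1.10% to 1.61% in heterozygous KO and 0.962% to 1.45% in wild type. Their summed level was 28144, 19865 and 20219 CPM in homozygous KO. It was 15718, 10952 and 11006 CPM in heterozygous KO and 12952, 14339, 13727 and 9416 CPM in wild type. Every homozygous KO library lay above every library of both other groups, and the heterozygous KO and wild-type ranges overlapped. In the ratio of geometric means homozygous KO was 1.80-fold above wild type. This held for every class, at 1.80-fold for H2A, 1.93-fold for H2B, 1.86-fold for H3 and 1.72-fold for H4.

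Within each genotype the sums were lower in animals 56 to 63 than in animals 44 to 51. The difference on the log2 scale was −0.49 in homozygous KO, −0.52 in heterozygous KO and −0.54 in wild type, each from 1 to 3 libraries a side. The wild types came mostly from the earlier run and the knockouts mostly from the later one, so the groups were also compared within each run. Homozygous KO was then 2.06-fold above wild type in animals 44 to 51 and 2.13-fold above it in animals 56 to 63. Heterozygous KO was 1.15-fold and 1.17-fold above wild type within the runs, against 0.994-fold when the runs were pooled.

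**Figure D1:**
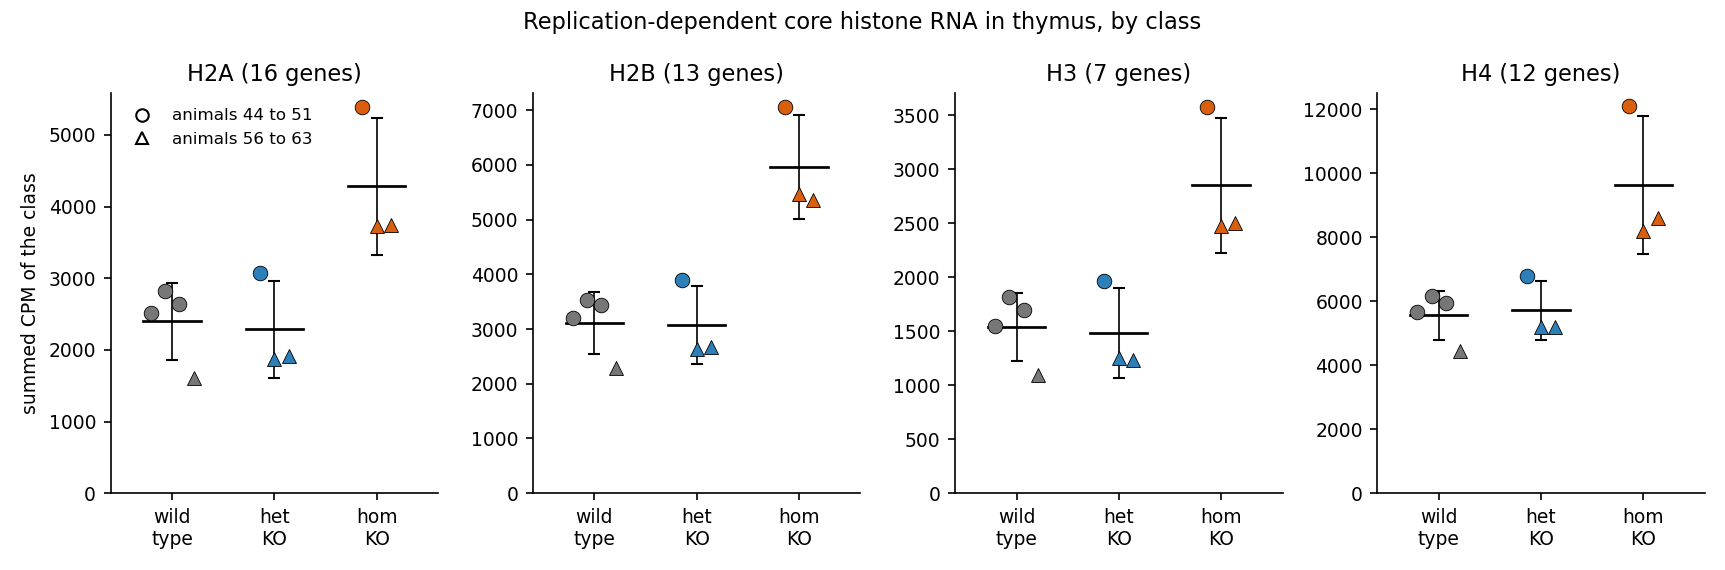
Summed CPM of the members of each class (y axis, from 0) in each library by genotype, with het KO for heterozygous KO and hom KO for homozygous KO. Circles are animals 44 to 51 and triangles animals 56 to 63, and the bar and whiskers are the mean ± SD of the group. In each class the 3 homozygous KO libraries lie above all others, and within each genotype the triangles lie below the circles.

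Per gene, the rise in homozygous KO covered most of the tested members. Of 43 members, 34 were higher than in wild type at an adjusted p under 0.05, the threshold used throughout, where 12.5% of all 19511 tested genes were, and 2 were lower, where 13.2% were. The members' median log2 fold change was 0.85, beside −0.01 over all tested genes. In 38 members every homozygous KO library was above every wild-type library (16.3% of all tested genes), and in 1, Hist3h2a, below (16.4%). With the run of animal numbers as a term in the model 39 members were higher (13.1% of all tested genes) and 2 lower (14.1%), and the median was 1.13. Within each run of animal numbers, every homozygous KO library was above every wild-type library in 41 members (24.1% of all tested genes) and below it in the other 2 (26.3%). The members share libraries and, in part, reads, and are not independent of each other.

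Among the called rises the largest was that of Hist1h2ba, the gene of the testis H2B variant, at a low level. The homozygous KO libraries held 6.21, 5.15 and 6.88 CPM of it, above the 2.21, 2.02, 2.97 and 2.16 CPM of the wild types. Its log2 fold change was 1.37 ± 0.20 (adjusted p = 5.1e-04), where ± gives the SE here and in what follows. Hist1h2bb (ENSMUSG00000075031), the most abundant H2B member per length, had 1313, 1143 and 1106 CPM in homozygous KO, 706, 501 and 518 CPM in heterozygous KO, and 560, 614, 621 and 457 CPM in wild type. All 3 homozygous KO values exceeded all others, with a log2 fold change of 1.08 ± 0.13 and the smallest adjusted p of the members, 1.98e-04. Hist1h4j, an H4 gene whose stem-loop and promoter are printed above, had 799, 531 and 499 CPM against 294, 333, 372 and 162 CPM in wild type, and its log2 fold change was 1.07 ± 0.28 (adjusted p = 0.0158). Hist1h2br and Hist2h4 rose by 1.08 and 1.05 on the log2 scale.

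Levels between genes were compared as CPM per kilobase of annotated exon, averaged over all libraries. These values depend on the annotated length, so their order is not one of counts alone. Hist1h4k had 847 CPM over an annotated 312 bases, without a match to the stem-loop. Hist1h4d, with the highest mean CPM of the members at 1357, came to 1192 CPM per kilobase over 1138 bases. The highest H4 members were Hist1h4k at 2715, Hist1h4f at 2236 and Hist1h4h at 2073 CPM per kilobase. The highest H2B members were Hist1h2bb at 1484, Hist1h2bg at 1249 and Hist1h2bj at 919, and the highest H2A members Hist1h2ak at 1429, Hist1h2ab at 1118 and Hist1h2af at 794. For H3 they were Hist1h3c at 1108, Hist1h3a at 624 and Hist1h3e at 610 CPM per kilobase. Of the 12 genes listed as highest of their class, 11 rose in homozygous KO, by 0.83 to 1.08 on the log2 scale. Hist1h3a, with a log2 fold change of 0.62, missed the threshold (adjusted p = 0.0524).

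By class, 10 of 13 tested H2A members, 10 of 13 H2B, 4 of 5 H3 and 10 of 12 H4 members were higher in homozygous KO than in wild type, and 1 H2A and 1 H2B member were lower. The median log2 fold change was 0.82 for H2A, 0.95 for H2B, 0.89 for H3 and 0.85 for H4. The 7 members that passed the test in neither direction were Hist1h2bf, Hist1h3a, Hist1h4m, Hist1h4n, Hist2h2ab, Hist2h2ac and Hist3h2ba. With the run of animal numbers in the model, all of these except Hist1h4m and Hist1h4n were called higher.

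**Figure D2:**
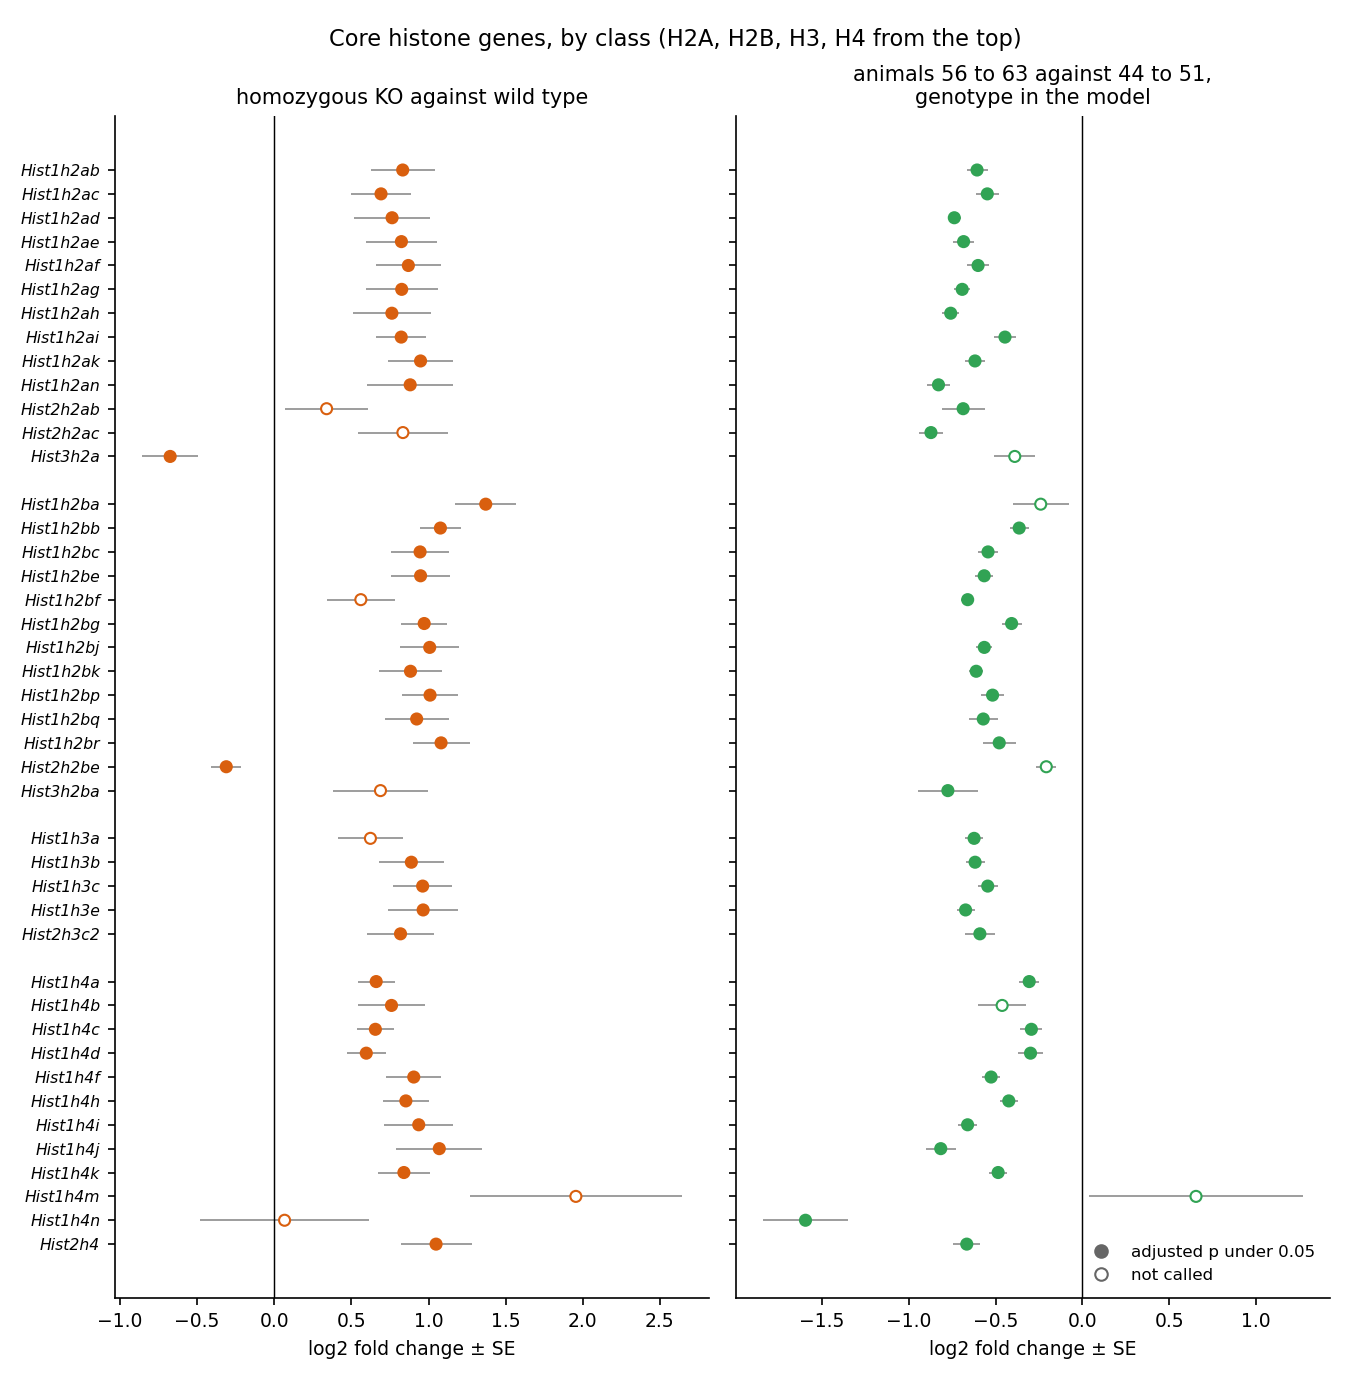
Log2 fold change ± SE (x axis) of each tested member (y axis), by class, for homozygous KO against wild type on the left and for animals 56 to 63 against 44 to 51 with genotype in the model on the right. Filled points passed an adjusted p under 0.05. On the left all members but Hist3h2a and Hist2h2be lie above 0, and on the right all but Hist1h4m lie below it.

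Both members that fell in homozygous KO lie outside the Hist1 cluster and had low levels. The annotated exons of Hist2h2be span 2620 bases, without a match to the stem-loop, and those of Hist3h2a 2146 bases, with a match. Among members of like length, Hist1h2ac (2482 bases, with a match) and Hist1h2br (2212 bases, without) rose. Hist1h2br is not of like kind: it has 3 annotated transcripts, where Hist2h2be has 1. Of the 100-base stretches of Hist1h2br, 13.6% occur in no other annotated gene. Whether length or the stem-loop bears on the direction of change was not tested. Hist2h2be (ENSMUSG00000068854), the gene of an H2B variant best known from olfactory neurons, had 21.1, 18.0 and 19.8 CPM in homozygous KO, 26.9, 24.6 and 22.7 CPM in heterozygous KO, and 25.8, 25.8, 24.7 and 21.1 CPM in wild type. The highest homozygous KO value equalled the lowest wild-type value to 3 digits, and the log2 fold change was −0.31 ± 0.10 (adjusted p = 0.0346). Its head-to-head partner Hist2h2ac (ENSMUSG00000068855), an H2A gene, had 576, 336 and 329 CPM in homozygous KO, 305, 166 and 179 CPM in heterozygous KO, and 233, 266, 296 and 134 CPM in wild type. The homozygous KO values of Hist2h2ac were all the higher ones, with a log2 fold change of 0.83 ± 0.29 (adjusted p = 0.0582) and of 1.20 ± 0.08 with the run of animal numbers in the model (adjusted p = 2.9e-06). The same model gave −0.22 ± 0.07 for Hist2h2be (adjusted p = 0.0354). The promoter printed for Hist2h2ac spans all of the 239 bases between the starts. In contrast, for the 6 other pairs within 1000 bases in which both genes were tested, all of them H2A and H2B genes of the Hist1 cluster, both fold changes were above 0, from 0.56 to 1.01 on the log2 scale.

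Hist3h2a (ENSMUSG00000078851), an H2A gene of the Hist3 cluster, had 8.73, 8.20 and 6.21 CPM in homozygous KO, 12.6, 10.1 and 9.74 CPM in heterozygous KO, and 14.4, 14.6, 11.1 and 9.21 CPM in wild type. The homozygous KO values lay below all others, and the log2 fold change was −0.67 ± 0.18 (adjusted p = 0.0197). Hist3h2a overlaps Trim17 on the same strand in the annotation, and Trim17 was at 0.688 to 1.53 CPM in all libraries. Both calls were fragile: without homozygous KO replicate 3 or without wild type replicate 1 or 2 neither Hist2h2be nor Hist3h2a passed the test, and without homozygous KO replicate 2, heterozygous KO replicate 2 or wild type replicate 3 Hist2h2be did not, with adjusted p-values for both genes between 0.0555 and 0.143. Their fold changes stayed below 0 in all of these fits. Neither gene passed when only the 2 wild types with 1 wt word in their titles served as controls (adjusted p = 0.26 for Hist2h2be and 0.203 for Hist3h2a), nor did Hist2h2be with Xist as a covariate for sex (0.0559). Hist3h2ba, an H2B gene of the same cluster, had a log2 fold change of 0.69 ± 0.31 (adjusted p = 0.129).

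**Figure D3:**
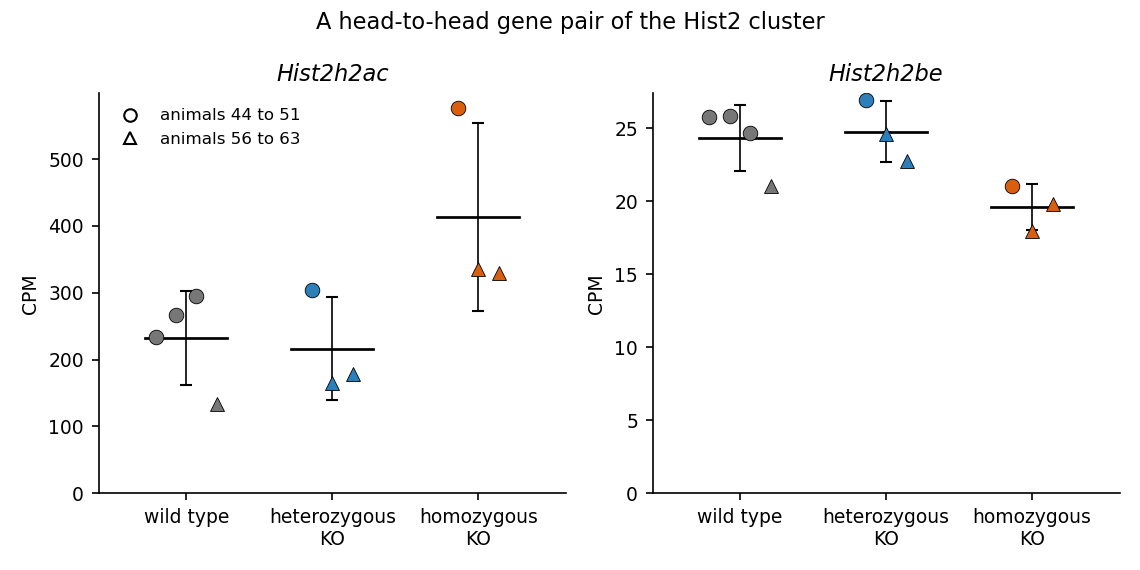
CPM (y axes, from 0, on different scales) of the head-to-head genes Hist2h2ac and Hist2h2be in each library by genotype, with circles for animals 44 to 51, triangles for animals 56 to 63 and the mean ± SD. The homozygous KO libraries are the highest for Hist2h2ac, at 329 to 576 CPM, and lowest on average for Hist2h2be, at 18.0 to 21.1 CPM.

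Against heterozygous KO, homozygous KO had 31 members higher (7.63% of all tested genes) and 1 lower, Hist2h2be (9.5% of all tested genes), with a median log2 fold change of 0.91. With the run of animal numbers in the model 39 were higher (10.3%) and 2 lower (11.4%), at a median of 0.92. The largest called rises were those of Hist1h4m at 2.74, Hist1h4j at 1.24, Hist2h4 and Hist1h2bp at 1.10 and Hist1h2ba at 1.08 on the log2 scale. Without homozygous KO replicate 1, heterozygous KO replicate 2 or heterozygous KO replicate 3 the calls of this comparison went down to 20, 17 and 16 members, with medians of 0.69, 0.79 and 0.80. The share of all tested genes called in these 3 fits is not given here. The comparisons of homozygous KO with wild type and with heterozygous KO share the homozygous KO libraries.

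Between heterozygous KO and wild type no member passed the test in edgeR, where 0.0154% of all tested genes did, none had an unadjusted p under 0.05 (7.28% of all tested genes), and DESeq2 called none either. The members' log2 fold changes ran from −0.79 to 0.29, with a median of −0.03, and the groups overlapped in every member, where 4.41% of all tested genes had every heterozygous KO library above and 4.26% every one below the wild types. With the run of animal numbers in the model the median was 0.20, and again no member passed the adjusted test, but 29 of 43 had an unadjusted p under 0.05, where 7.86% of all tested genes did. Within each run of animal numbers, every heterozygous KO library was above every wild-type library in 39 of 43 members (9.67% of all tested genes). The exceptions were Hist1h4j, Hist1h4m, Hist3h2a and Hist3h2ba. In animals 56 to 63 this order rests on 1 wild-type library and in animals 44 to 51 on 1 heterozygous KO library.

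The difference between the runs of animal numbers was tested with genotype in the model. The split into these runs was noticed in earlier results of these data, so the test is not independent of that choice. Of 43 members 38 were lower in animals 56 to 63 (3.31% of all tested genes) and none was higher (3.45%), with a median log2 fold change of −0.57, beside 0.00 over all tested genes. In 41 members every library of animals 56 to 63 was below every library of animals 44 to 51 of the same genotype, in all 3 genotypes (9.66% of all tested genes), and the exceptions were Hist1h2ba and Hist1h4m. Hist2h2ac fell by 0.87 on the log2 scale, Hist1h2an by 0.83, Hist1h4j by 0.82 and Hist3h2ba by 0.77. In Hist1h2an, for example, the wild types of animals 44 to 51 had 169, 181 and 178 CPM and that of animals 56 to 63 had 91.1 CPM, while homozygous KO had 368 CPM in the first run and 259 and 229 CPM in the second. The 5 members that did not pass were Hist1h2ba, Hist1h4b, Hist1h4m, Hist2h2be and Hist3h2a. A model in which the homozygous effect could differ between the runs called no member in edgeR (0.041% of all tested genes) and 1, Hist1h4c, in DESeq2; 13 of 43 had an unadjusted p under 0.05 (9.33% of all tested genes), at a median difference of 0.16. This model rests on 1 homozygous KO library in the earlier run and 1 wild-type library in the later one.

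The counts assigned to the H4 genes Hist1h4m and Hist1h4n stood in proportions that changed from library to library. Hist1h4m held 4.98%, 5.67% and 5.01% of the counts of both genes in heterozygous KO replicates 1 and 3 and wild type replicate 3, and 27.0% and 28.1% in wild type replicates 1 and 2. In the other 5 libraries, all homozygous KO among them, the share was 45.8% to 67.4%. Of the 100-base stretches of the 2 transcripts 11.9% and 19.3% occur in no other annotated gene, so a read can fit more than 1 gene. How the authors' counting treated such reads is not stated, and what set the proportions was not tested. The sum of both genes was 755, 461 and 461 CPM in homozygous KO, 387, 231 and 253 CPM in heterozygous KO and 352, 371, 348 and 172 CPM in wild type. Summed, the pair was thus higher in each homozygous KO library than in any other, and within each genotype it was lower in animals 56 to 63 than in animals 44 to 51. Taken alone, Hist1h4n fell by 1.59 on the log2 scale in animals 56 to 63. How far the call for Hist1h4m alone and the size of this fall depend on the split between the copies was not tested.

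**Figure D4:**
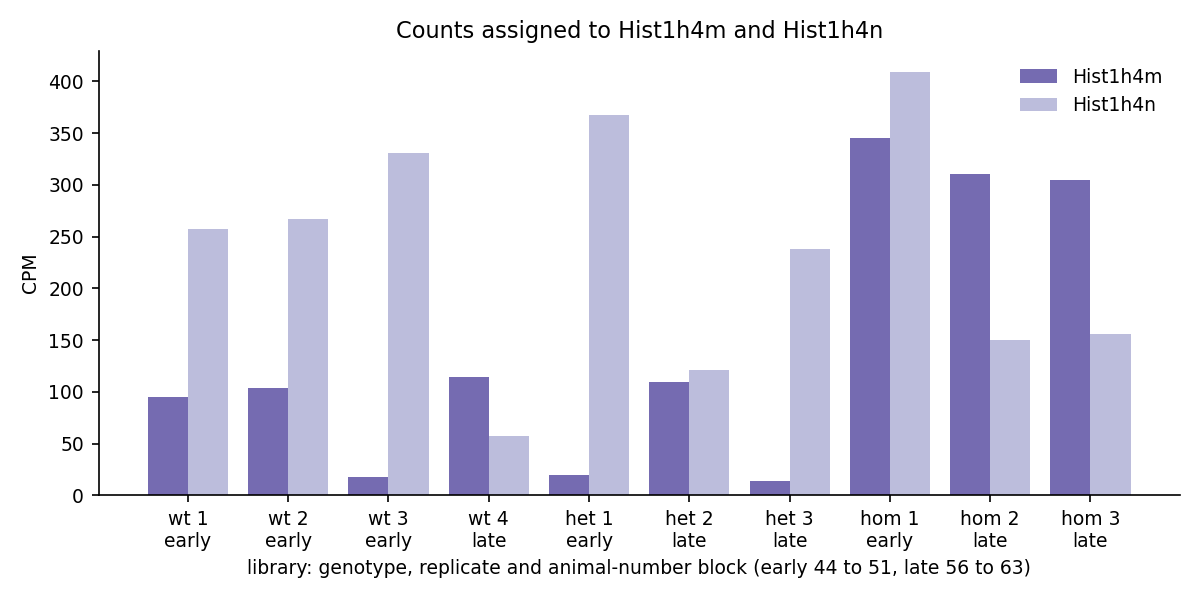
CPM (y axis) assigned to Hist1h4m (dark) and Hist1h4n (light) in each library (x axis; wt, wild type; het, heterozygous KO; hom, homozygous KO). The Hist1h4m bar is 14.3 to 19.3 CPM in wt 3, het 1 and het 3 and 305 to 346 CPM in the homozygous KO libraries.

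Shared sequence is common in the family. Over the 48 members a median of 60.7% of the 100-base stretches were found in no other annotated gene, and 19 members were under 50%. Of the 28 tested members with at least 50% unique stretches, 23 passed the test in homozygous KO against wild type, 21 higher and 2 lower, and of the 15 with less, 13 passed, all higher. The medians were 0.88 and 0.84 on the log2 scale. For animals 56 to 63 against 44 to 51 the counts were 24 of 28 and 14 of 15, all lower. In the annotation 18 members overlap a gene on the other strand and 5 a gene on the same strand, and whether HTSeq was told the strand is not given.

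The genes that serve histone supply were taken as lists. Of 24 genes of histone transcript synthesis and 3′ end processing, 13 rose in homozygous KO against wild type (12.5% of all tested genes) and none fell (13.2%). Their median log2 fold change was 0.21. Slbp, which binds the stem-loop, had 289, 198 and 224 CPM in homozygous KO, 195, 194 and 192 CPM in heterozygous KO and 184, 179, 162 and 177 CPM in wild type, so that the homozygous KO libraries were highest, with a log2 fold change of 0.43 ± 0.10 (adjusted p = 0.0102). The others that rose were the cyclin and kinase genes Ccne1 (0.38) and Cdk2 (0.28), the snRNP protein genes Snrpb (0.36) and Snrpd3 (0.26), the cleavage factors Cpsf4 (0.29) and Cstf2 (0.22), the cap-binding genes Ncbp1 (0.18) and Ncbp2 (0.29) with their partner Srrt (0.25), the decay genes Eri1 (0.29) and Upf1 (0.17), and Ybx1 (0.31). Npat, the coactivator that histone promoters share, had a log2 fold change of 0.09 ± 0.07 (adjusted p = 0.392). With library totals alone as the scaling, 4 of the 24 passed the test.

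Of 16 genes of histone chaperones and the acetyltransferase of new H4, 11 rose and none fell, with a median log2 fold change of 0.24. Of all tested genes 12.5% rose and 13.2% fell, beside which the counts of the variants and linker histones below stand too. The largest rises were those of Asf1b (0.57), which hands over H3 and H4, and of Chaf1a (0.54) and Chaf1b (0.35), subunits of the assembly factor that loads them behind the fork. Of the 9 replication-independent variants, whose transcripts are made outside S phase as well, H2afx (0.60), Cenpa (0.47), H2afv (0.45), H2afz (0.39) and H2afy (0.25) rose and H3f3b fell by 0.26. H3f3a (0.13), H2afj (0.24) and H2afy2 (−1.11) did not pass the test. With the run of animal numbers in the model 8 of the 9 passed, 6 higher (13.1% of all tested genes) and 2 lower (14.1%). H2afj was then higher by 0.25 (adjusted p = 0.047). H2afy2, at no more than 2.29 CPM in any library, was lower at −1.50 (adjusted p = 0.00624). The 5 somatic linker histone genes of the Hist1 cluster, Hist1h1a to Hist1h1e, were treated apart from the members. Of these 4 rose in homozygous KO, at a median of 0.74 over the 5. All 5 were lower in animals 56 to 63 (3.31% of all tested genes), at a median of −0.76.

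Of 22 DNA replication genes 20 rose in homozygous KO (12.5% of all tested genes), none fell (13.2%), and the median log2 fold change was 0.40. Rrm2, a ribonucleotide reductase subunit, rose by 0.58, and Gins1, part of the replicative helicase, by 0.51. All 16 mitosis genes rose, beside the same 12.5% of all tested genes, at a median of 0.51, led by Birc5 (0.70), Ccna2 (0.65) and Cenpe (0.63). Between the runs of animal numbers no gene of these 2 lists, nor of the processing, chaperone and variant lists, passed the test in edgeR. Of all tested genes 3.45% were higher and 3.31% lower there. In the lists 0 of 22 replication, 7 of 16 mitosis, 5 of 24 processing, 2 of 16 chaperone and 2 of 9 variant genes had an unadjusted p under 0.05 (23.0% of all tested genes). DESeq2 called 0, 2, 4, 1 and 2 genes of these lists. The median log2 fold change between the runs was −0.07 for DNA replication and −0.17 for mitosis.

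The members and the replication genes were also set side by side within the runs. The members' sum in homozygous KO was 2.06-fold and 2.13-fold above wild type in the earlier and the later run, and the sum of the replication genes was 1.56-fold and 1.15-fold above it. For the mitosis genes the sum was 1.692-fold and 1.265-fold above wild type. Divided by the replication sum, the members' sum was 3.95, 3.67 and 3.48 in homozygous KO. It was 3.11, 2.06 and 2.21 in heterozygous KO and 2.84, 3.02, 3.10 and 1.93 in wild type. The homozygous KO libraries had the 3 highest ratios, and the 3 libraries at 1.93 to 2.21 were those of animals 56 to 63 that were not homozygous KO. These ratios are given as a description, with no test. Each fold within a run rests on 1 animal on one side, homozygous KO replicate 1 in the earlier run and wild type replicate 4 in the later one, and the replication sum of that homozygous KO library was 7127 CPM, where the other 2 had 5417 and 5814 CPM.

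**Figure D5:**
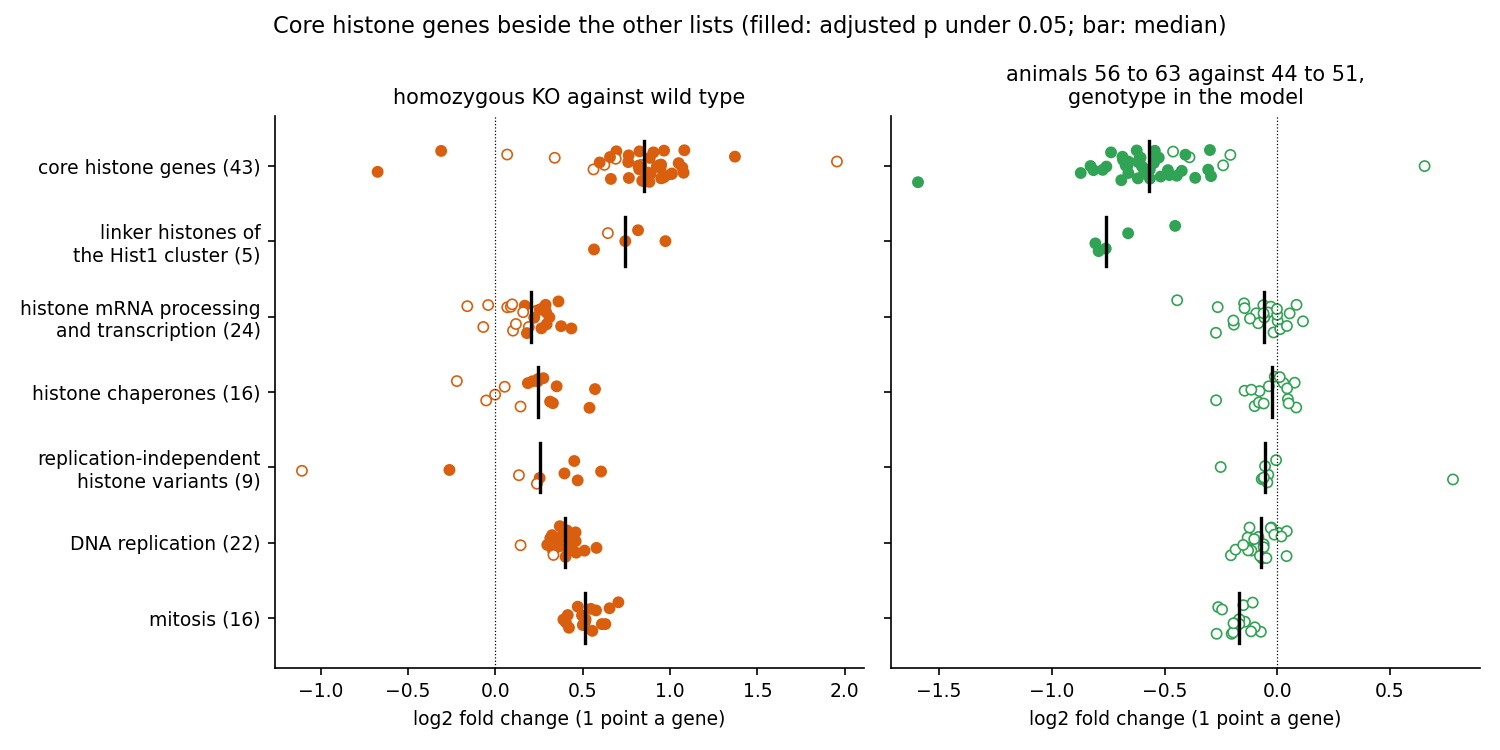
Log2 fold change (x axis) of each tested gene of the core histone genes and 6 other lists (y axis, with the number of genes) for homozygous KO against wild type on the left and animals 56 to 63 against 44 to 51 on the right. Filled points passed an adjusted p under 0.05 and the bar is the median. On the left the core histone genes have a median of 0.85 and DNA replication one of 0.40, and on the right −0.57 and −0.07.

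Some markers of other cells differed between homozygous KO and wild type as well, where 12.5% of all tested genes were higher and 13.2% lower. The summed levels of the erythroid and of the fibroblast genes overlapped between these groups. In homozygous KO against wild type, 6 of 8 neutrophil genes rose, with a summed level of 56 to 312 CPM against 7.9 to 24.4 CPM, as did 2 of 7 erythroid genes (99.3 to 915 against 140 to 708 CPM) and 4 of 6 fibroblast genes (10.4 to 32.3 against 4.25 to 12.9 CPM). With the run of animal numbers in the model edgeR called 6 neutrophil and 2 erythroid genes higher (13.1% of all tested genes) but none of the 6 fibroblast genes. Of these 6 fibroblast genes 4 had an unadjusted p under 0.05 (lowest adjusted p = 0.0588). The median log2 fold change over the 6 was 1.32 instead of 1.56. Of 7 macrophage genes 6 fell (22 to 24.4 against 45.4 to 62.2 CPM). Of 7 B-cell genes 6 fell, with a median log2 fold change of −5.25 over the 7, and Ms4a1, Pax5 and Igkc were at 0 in homozygous KO replicate 3. Their summed level (294 to 335 against 329 to 394 CPM) was mostly Ighm, the gene that did not pass the test, which held 286 to 328 CPM in homozygous KO and 295 to 339 CPM in wild type. Of 12 thymocyte genes 2 rose and 2 fell, and their sum was 9700 to 10200 CPM against 11600 to 12900 CPM, so the labelled tissue's markers were present throughout. The thymocyte counts are near the shares of all tested genes. Of 6 thymic epithelial genes 1 rose and 1 fell. Of 5 endothelial genes 1 rose, and none with the run of animal numbers in the model. Between the runs of animal numbers 1 thymocyte gene was called lower (3.31% of all tested genes) and 1 thymic epithelial gene higher (3.45%). No neutrophil, erythroid, macrophage, B-cell, fibroblast or endothelial gene was called there. The part of these cell types in the histone values was not tested. Among 338 other protein-coding genes with a single exon, 36 rose (12.5% of all tested genes) and 29 fell (13.2%) in homozygous KO. In animals 56 to 63, 20 of them were higher (3.45% of all tested genes) and 6 lower (3.31%). The medians were 0.03 and 0.01. Rpph1, a short transcript without a poly(A) tail that was picked after its values were seen, had log2 fold changes of −0.07 (adjusted p = 0.726) and 0.08 (adjusted p = 0.745) in these comparisons. As 1 gene picked in this way, it does not stand for other transcripts without a tail. The values of Rmrp, which was looked up beside it, are not given here.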

How the data were processed

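RNA was isolated with the RNeasy kit, and stranded libraries were made from total RNA with the KAPA RNA HyperPrep kit with RiboErase and sequenced on an Illumina NovaSeq instrument. The authors deposited raw read counts per gene, 1 column per animal, with no normalization. The submitters' processing notes list STAR 2.4.1d, HTSeq 0.6.1p1 and the builds NCBIM37 and mm9, while the study's methods describe a BWA pipeline with HTSeq counting on a human reference; the annotation, strand setting and treatment of multiply mapped reads are not given in the sources used here. Reads that fit several near-identical histone genes could thus be dropped or shared out.

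Columns were assigned by animal and library number. For animals 51 and 56 the column name carries an extra het, and these 2 stayed with the wild types as titled. Of the 35375 rows 34467 carried Ensembl identifiers, 30204 of which matched GENCODE M21 (GRCm38). The annotation gave names, exon lengths, strands and overlaps only, since its build differs from the notes'. Counts were tested with edgeR 4.0.16 (R 4.3.3): filterByExpr, TMM scaling, and glmQLFit and glmQLFTest over all 10 libraries, with Benjamini-Hochberg adjustment over all 19511 tested genes. The SE is the absolute log2 fold change divided by the square root of F. CPM were scaled by TMM. Class sums and ratios were described without a test. DESeq2 1.42.0 was an alternative. The run of animal numbers was fitted as a term after genotype, alone and with an interaction. The pairs of libraries within groups had a chi-square per degree of freedom of 13.5 to 116, so none was a duplicate. Same-numbered replicates of different genotypes did not deviate together: 3 of 9 pairs had r above 0.1, and so had 8 of 24 differently numbered pairs. Libraries of the same run of animal numbers did: 10 of 15 such pairs had r above 0.1, with a median of 0.173. Of the pairs from different runs 1 of 18 had, with a median of −0.137. Nothing says that animals of a group came from different litters, so p-values measure the spread between these animals. A count of 0 allows up to 3 counts, counting error only. This does not cover reads that were left unassigned to a gene.

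The genes named are Usp7, the 5 largest called rises and falls of each comparison, the 3 members of each class with the highest CPM per kilobase, the tested Hist2 and Hist3 members, called processing genes, all tested variants and the 3 largest called changes of the other lists, of which 1 gene is not reported here. Members, lists, rules and the split into runs of animal numbers were chosen with earlier results of these data known. The fits were tested on simulated counts.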

Additional observations from a re-analysis of the deposited data

Results flagged for a closer look

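Of 62 values examined for a wild-type library that stood apart from the other 3, 4 were flagged, all of them core histone genes and all for a low value in wild type replicate 4, the only wild type of animals 56 to 63. It had 91.1 CPM of Hist1h2an, where the others had 169, 181 and 178, and 233 CPM of Hist1h2bj, where they had 346, 366 and 361. For Hist1h2bp it had 49.5 CPM against 77.7, 81.2 and 77.2, and for Hist1h4f 493 CPM against 732, 781 and 773. The gap to the next library was 0.83 to 0.874 of the whole range, just past Dixon's limit for 4 samples. Chance flags about 1 group in 20, and the members share this library, so the 4 flags are not separate events. In the heterozygous and homozygous KO groups the libraries of animals 56 to 63 were also the lower ones for these 4 genes. Without wild type replicate 4, 32 of 43 members were called in homozygous KO against wild type, with a median log2 fold change of 0.73, and 36 were called lower in animals 56 to 63, with a median of −0.53.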

How the results depend on the processing

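The members' calls in homozygous KO against wild type numbered 24 to 41 under the alternative scalings, tools, filters, covariates and sets of wild types, and 27 to 39 with 1 library left out, against 36. They numbered 26 to 41 and, with 1 library left out, 16 to 36 for homozygous against heterozygous KO (32), and 37 to 41 and 33 to 39 between the runs of animal numbers (38). Except with the run of animal numbers as a term, the share of all tested genes called in these fits is not given here. A change in the members' counts can thus not be told from a change in the call rate of all genes. Heterozygous KO against wild type gave 0 in every fit. The interaction gave 0, except for 1 in DESeq2, and could not be fitted without homozygous KO replicate 1 or wild type replicate 4. The count among members with at least 50% unique stretches, an alternative chosen after seeing the data, was 23, 20 and 24 in these comparisons, in this order, out of 28 tested.

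The processing list had 4 calls with library totals alone, 8 with an Xist covariate, and 7 and 2 with only the wild types with 2 or 1 wt words in their titles, against 13, and 8 to 13 with 1 library left out. The chaperone list had 6, 7, 7 and 2 against 11, and 7 to 12. DNA replication had 11 and 5 against 20 with those wild types, and 17 to 20, and mitosis 8 with the first of them against 16, and 14 to 16. The replication-independent variants had 5 to 7 with 1 library left out, against 6. Between the runs DESeq2 called 4, 1, 2 and 2 of the processing, chaperone, variant and mitosis genes, the unfiltered fit 1 chaperone and 1 mitosis gene, and fits without 1 library 0 to 2 of the processing and 0 to 1 of the mitosis genes. Applying the members' alternatives to these lists was decided after seeing the data. The limit on call rates given for the members holds for these lists as well. The causes were not tested.

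Usp7 in homozygous against heterozygous KO had an adjusted p of 0.0565 with an Xist covariate (log2 fold change −0.41), and log2 fold changes of −0.50 to −0.28 with 1 library left out, with adjusted p-values of 0.0765 and 0.0915 without heterozygous KO replicates 2 and 3. On the log2 scale the H2A and H2B sums in homozygous KO against wild type were 1.22 and 1.25 in animals 56 to 63 alone, against 0.85 and 0.95. Without 1 library the sums ranged, in that comparison, from 0.67 to 0.94 for H2A, 0.80 to 1.02 for H2B, 0.72 to 0.98 for H3 and 0.61 to 0.89 for H4. The direction of Hist1h4n turned in homozygous KO against wild type with library totals alone (−0.036), the replicate block (−0.45), the Xist covariate (−0.19) or the 2-word wild types (−0.13), and ranged from −0.58 to 0.32 without 1 library. Against heterozygous KO it turned with the Xist covariate (0.12) and ranged from −0.67 to 0.41 without 1 library, where Hist2h2ab ranged from −0.16 to 0.47. None of these was called in any of those fits.

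Replicate numbers did not pair the samples (r from −0.142 to 0.299 over the 9 same-numbered pairs). The replicate block gave 35 members called in homozygous KO against wild type, 0 in heterozygous KO against wild type and 39 in homozygous against heterozygous KO.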
